A study of Mus musculus with 4 samples.

Results

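Esm1, Igfbp3, Pdgfb and Tm4sf1 are genes expressed by tip cells, the endothelial cells that lead a vascular sprout. Chromatin accessibility at these 4 genes was examined in retinal endothelium labelled as an inducible Rnf20 knockout (KO), against control endothelium (CTR). The members were all peaks that the authors' deposited table assigns to one of the 4 symbols, which gave 12 of 6891 listed peaks. Pdgfb had 5 of them, Esm1 had 4, Igfbp3 had 2 and Tm4sf1 had 1. The table holds no expression values, so expression of the 4 genes in tip cells was not checked here.

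Tip cells extend filopodia toward vascular endothelial growth factor (VEGF), and signal through the Notch ligand DLL4 to the stalk cells behind them. Esm1 encodes endocan, a secreted proteoglycan induced by VEGF. Igfbp3 encodes a carrier protein for insulin-like growth factors. Pdgfb encodes the B chain of platelet-derived growth factor, which tip cells release and which recruits pericytes, and Tm4sf1 encodes a membrane protein of endothelial filopodia. RNF20 is a ligase that attaches ubiquitin to histone H2B, a mark of transcribed genes.

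The assay was ATAC-seq, which marks open DNA by where a transposase inserts, on CD31-selected endothelial cells of mouse retinas at postnatal day 7. KO pups carried the tamoxifen-inducible Pdgfb-iCreERT2 transgene and floxed Rnf20 alleles (Rnf20p/p), and CTR pups carried the same Rnf20p/p alleles without Cre, both in a C57BL/6 strain. All pups received 75 µg of 4-hydroxytamoxifen daily from postnatal day 1 to 4, so Cre and the intended loss of Rnf20 differ together between the groups. The labels list 4 libraries, of which 1 KO and 1 CTR have fields that agree, and the other 2 carry a title of one genotype beside the genotype field of the other. Which libraries entered the KO and CTR levels is not stated, so the make-up of both groups behind every fold below is unknown.

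The authors deposited 1 log2 level for KO and 1 for CTR per peak, with no value per library, so no spread between replicates can be given and no new test was made. Each fold change, p and false discovery rate (FDR) below is the authors' own, and a peak is called here where their FDR is under 0.05. The table lists only peaks with an unadjusted p under 0.05, so every member was listed because its groups differed, and peaks of the same genes that did not differ are not analysed here. The FDR and p columns imply that about 76400 peaks were tested, of which about 3800 would pass that p with no effect. No peak was assigned to Rnf20 itself (0 listed), so the table does not show the targeted gene. In a population of sorted cells, a larger share of tip cells and more open chromatin per cell cannot be told apart.

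Of the 12 peaks, 11 had a positive fold (higher in KO) and 1 a negative fold per the authors' deposited table. Called peaks numbered 3, all higher in KO, and 0 were called lower (1 negative at unadjusted p under 0.05). Of all listed peaks, 3.02% were called, 1.29% higher and 1.73% lower, and 62.1% had a positive and 37.9% a negative fold. The called peaks were 2 at Pdgfb and the 1 at Tm4sf1. No peak of Esm1 or Igfbp3 was called. The median log2 fold over the 12 peaks was 1.275 per the authors' deposited table, against 0.93 over all listed peaks. Both medians include negative folds, which were 37.9% of all listed peaks. Among positive folds alone the median was 1.32 at the 4 genes and 1.37 over all listed peaks, so positive folds at these genes were not larger than usual. By the authors' annotation 11 of the 12 were intergenic and 1 was intronic, and 43.7% of all listed peaks were intergenic. Several of the 11 overlap a RefSeq gene, as given below. The share of all listed intergenic peaks that do so was not computed.

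**Figure D1:**
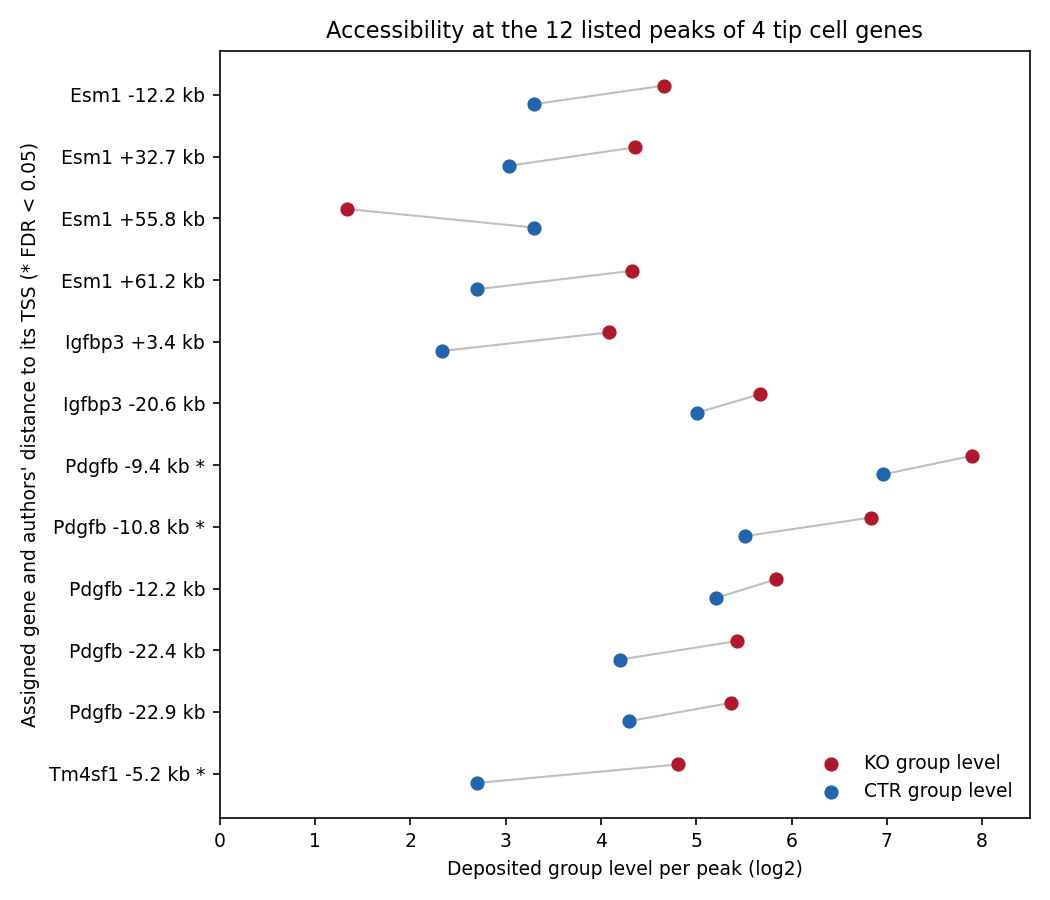
Deposited log2 level of each of the 12 peaks in KO (red) and CTR (blue), 1 value per group without error, with peaks named by gene and by the authors' distance to the transcription start site (TSS) in kb. The KO level lies to the right of the CTR level at 11 peaks and to the left at the Esm1 peak 55769 bases from the TSS; an asterisk marks FDR < 0.05.

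The members' promoters, 250 bases before to 50 after the start, are shown because 11 of 12 peaks had folds of 1 sign while no listed peak covered the starts of Esm1, Igfbp3 and Tm4sf1 (0 listed peaks each within 250 bases). RefSeq sequences of build GRCm38.p6 were matched for 3 of the 4 genes, not for Pdgfb. They were searched on both strands for 8 short patterns of factors active in endothelium. AP-1, the dimer of JUN and FOS proteins, was taken as TGANTCA. The ETS family, which includes ERG and FLI1, was taken in a first form CCGGAA and, as a second form, CAGGAA. TEAD, the partner of the Hippo pathway's coactivators, was taken as GGAATG, which can share letters with an ETS match. Forkhead factors were taken as TGTTTAC and the Notch effector RBPJ as GTGGGAA. SOX factors were taken as ACAAAG and GATA factors as AGATAA. Capitals mark the matches, all of which were ETS forms on the minus strand of the printed sequence.
Esm1 promoter, chr13:113209409-113209708, plus strand: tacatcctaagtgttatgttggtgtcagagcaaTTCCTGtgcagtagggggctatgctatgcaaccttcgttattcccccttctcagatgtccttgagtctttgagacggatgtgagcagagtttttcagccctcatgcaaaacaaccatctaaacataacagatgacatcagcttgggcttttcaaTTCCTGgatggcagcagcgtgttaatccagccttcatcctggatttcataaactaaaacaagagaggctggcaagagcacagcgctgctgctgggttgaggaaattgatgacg
Igfbp3 promoter, chr11:7213874-7214173, minus strand: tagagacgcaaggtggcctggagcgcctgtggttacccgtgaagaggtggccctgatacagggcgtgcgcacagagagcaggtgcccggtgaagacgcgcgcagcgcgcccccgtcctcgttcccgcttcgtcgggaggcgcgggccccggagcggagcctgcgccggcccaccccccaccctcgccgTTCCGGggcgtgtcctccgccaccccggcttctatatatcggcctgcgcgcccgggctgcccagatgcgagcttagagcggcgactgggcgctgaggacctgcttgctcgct
Tm4sf1 promoter, chr3:57301939-57302238, minus strand: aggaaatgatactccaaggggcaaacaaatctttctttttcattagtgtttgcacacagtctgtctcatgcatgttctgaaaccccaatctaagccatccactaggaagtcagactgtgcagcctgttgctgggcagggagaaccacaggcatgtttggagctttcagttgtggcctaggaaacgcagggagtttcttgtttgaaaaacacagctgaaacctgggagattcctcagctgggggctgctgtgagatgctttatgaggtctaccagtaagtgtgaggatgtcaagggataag

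The Esm1 promoter held CAGGAA at 2 places, with first bases 217 and 63 bases before the start. This form occurs in 30.6% of the 32851 RefSeq promoters. CCGGAA was found once in the Igfbp3 promoter, 62 bases before the start, and occurs in 14.9% of promoters. None of the 8 patterns was found in the Tm4sf1 window. The 3 promoters also differed in base composition. The Igfbp3 promoter was 71.7% G and C, above 93.1% of promoters, while those of Esm1 (46.3%) and Tm4sf1 (47.3%) lay in the lower part of the distribution.

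Tm4sf1 had the largest positive fold of the 12 peaks. Its peak, chr3:57307037-57307431 on mm10, is 395 bases wide and 5246 bases upstream of the TSS by the authors' distance. The level was 4.81 in KO and 2.70 in CTR, a log2 fold of 2.10 (4.29-fold) at p = 4.33e-05 and FDR 0.0328 per the authors' deposited table. The authors' class is intergenic, but the RefSeq gene spans 57285611 to 57387736 on chromosome 3 and includes this position. Among 1125 peaks with positive fold and a mean level within 0.5 of it, the median log2 fold was 1.23 and 20 had a larger fold per the authors' deposited table. A high rank among peaks of like level largely follows from the call itself. A second listed peak stood 10719 bases upstream of the same start, assigned to Mir12195. Its level was 3.90 in KO and 2.59 in CTR, with a log2 fold of 1.31, which did not reach the threshold (FDR 0.483 per the authors' deposited table). These were the 2 listed peaks within 250 kb of the Tm4sf1 start, and both had positive folds. The median over 27026 RefSeq genes was also 2 listed peaks in such a window.

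Pdgfb had 5 listed peaks, all with positive folds, in a stretch upstream of its coding region. The peak of smallest FDR among the 12, chr15:80025580-80026028, had a level of 6.83 in KO and 5.51 in CTR. Its log2 fold was 1.32 (2.5-fold) at p = 3.19e-05 and FDR 0.0284 per the authors' deposited table. The neighbouring called peak, chr15:80024010-80024835, was the widest of the 12 and the highest in level, at 826 bases with a level of 7.89 in KO and 6.96 in CTR. There the log2 fold was 0.93 (1.91-fold) at p = 5.88e-05 and FDR 0.0362 per the authors' deposited table. Both called peaks had larger folds than most peaks of like level. At a like level a larger fold tends to give a smaller p, so this rank largely follows from the call and adds no support to it. None of the 21 positive peaks with a mean level within 0.5 of the wider peak had a larger fold than its 0.93 (median 0.65), and 5 of 290 exceeded the 1.32 of the other (median 0.74), per the authors' deposited table.

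The other 3 Pdgfb peaks were not called. At chr15:80026971-80027308 the level was 5.84 in KO and 5.21 in CTR, with the smallest positive log2 fold of the 12, 0.63 (FDR 0.527 per the authors' deposited table). At chr15:80037166-80037563 it was 5.43 in KO and 4.20 in CTR, with a log2 fold of 1.23 (FDR 0.138 per the authors' deposited table). Only 83 bases separate that peak from the next, chr15:80037647-80038113, where the level was 5.37 in KO and 4.29 in CTR and the log2 fold 1.07 (FDR 0.201 per the authors' deposited table). Positive peaks with a mean level within 0.5 of these 3 had median log2 folds of 0.85, 0.97 and 0.97 per the authors' deposited table. Thus 4 of the 5 Pdgfb peaks lay above the median of listed positive peaks of their level and 1 below it. The 4 include both called peaks, whose place above it largely follows from the call. The 5 peaks form a group of 3 within a few kb and a group of 2 further upstream, and neighbours this close are not independent readouts.

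Where the Pdgfb peaks lie depends on the start chosen. The authors' distances place the 5 peaks from 9446 to 22903 bases upstream, which implies a TSS at position 80014976. RefSeq extends the gene, on the minus strand, from 79995865 to 80024614, so its 5' boundary is 9638 bases further upstream. By that boundary the widest peak covers the start itself, with its centre 191 bases inside the gene. The starts used for Esm1, Igfbp3 and Tm4sf1 came from RefSeq promoters instead. That of Tm4sf1 (57301988) lies inside its gene span, which ends at 57387736, so the starts of the genes are not defined alike. The centre of the other called peak is then 1190 bases upstream. The 2 most distant peaks fall within the RefSeq gene Gm41361.

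Peaks with positive folds were also listed well beyond Pdgfb. Within 250 kb of its RefSeq start, 16 peaks were listed, 15 with positive and 1 with negative fold per the authors' deposited table. As many or more listed peaks in such a window were found at 8 of 27026 RefSeq genes, Pdgfb included. Adjoining genes share peaks in such windows, so the 8 may include neighbours of Pdgfb and need not be separate regions. The 11 that were assigned to other genes had a median log2 fold of 0.86, and 0 of them were called per the authors' deposited table. Those assigned to Cbx7, a Polycomb protein gene, numbered 4, with levels of 5.36 to 6.05 in KO against 4.42 to 5.35 in CTR. Another 4 were assigned to the small nucleolar RNA gene Snord83b, with levels of 4.96 to 6.12 in KO against 4.10 to 5.13 in CTR. All 8 had log2 folds between 0.71 and 1.00 per the authors' deposited table. The exception in sign was a peak near Syngr1, a synaptic vesicle protein gene, with a level of 3.19 in KO and 4.54 in CTR (log2 fold -1.35, FDR 0.338 per the authors' deposited table). It was followed by a Syngr1 promoter peak at 4.49 in KO and 3.40 in CTR, and by a peak assigned to Mgat3 at 3.58 in KO and 1.37 in CTR.

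Joining neighbouring listed peaks of 1 sign across gaps of up to 50 kb gave 9 consecutive positive peaks over 48.5 kb. They ran from the Pdgfb start to the last peak assigned to Snord83b. This was the longest of 5790 such runs, the next longest having 8 peaks. With gaps of up to 100 kb the run took in the peaks assigned to Cbx7 and held 13 peaks over 138.7 kb, against 9 in the next longest. Its log2 folds ranged from 0.63 to 1.32 per the authors' deposited table. The Cre transgene is built on Pdgfb and is present in KO and absent in CTR. Reads from transgene copies of this region and accessibility at the native gene therefore cannot be told apart in these data. Without Pdgfb, 7 peaks of 3 genes remain, 6 with positive fold and 1 called.

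**Figure D2:**
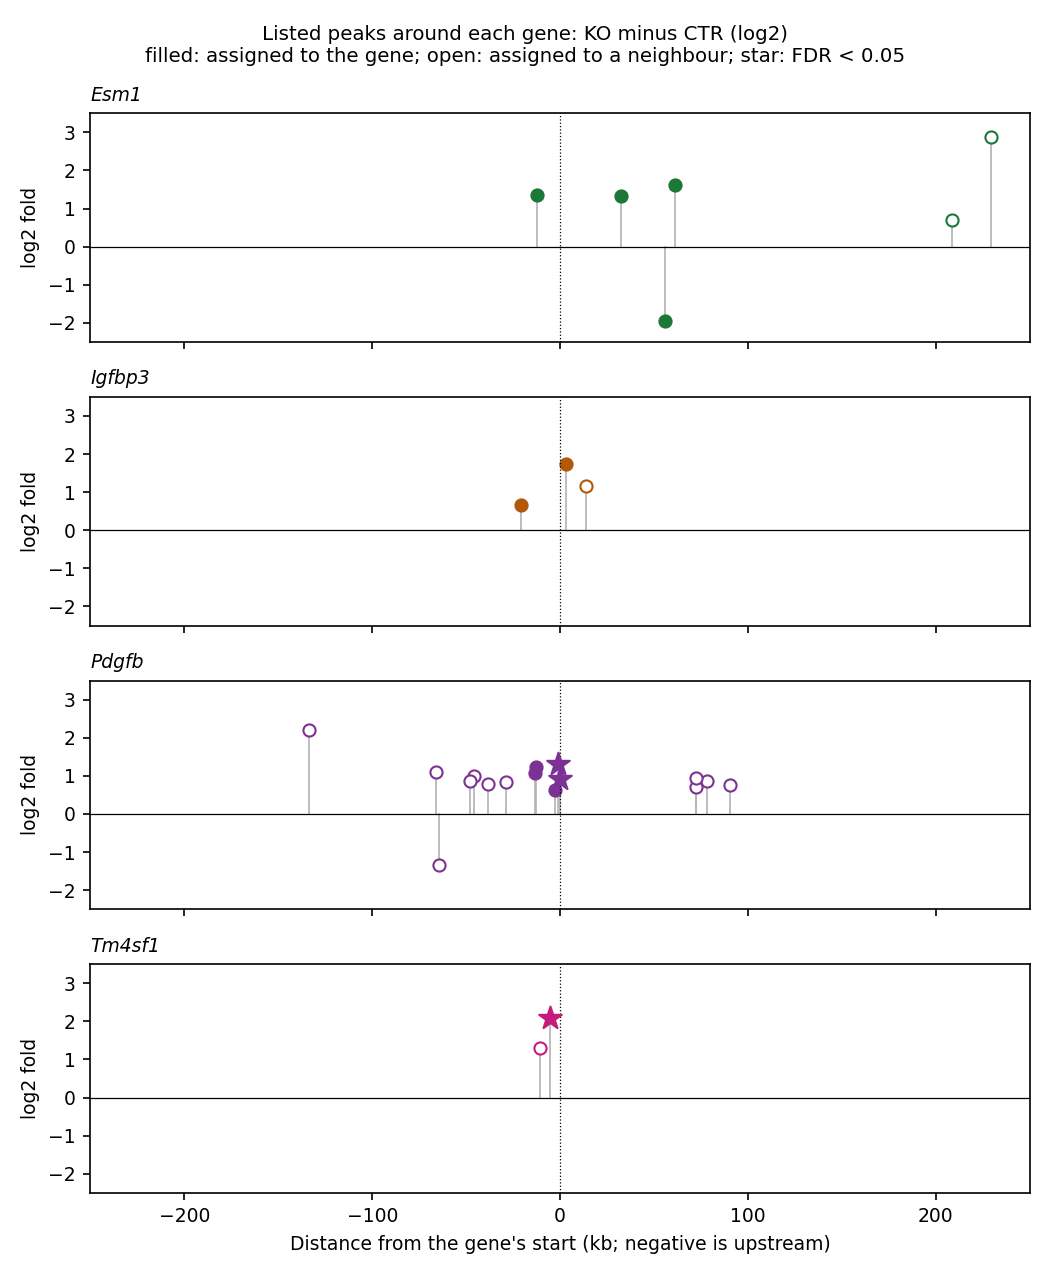
Log2 fold (KO minus CTR) of every listed peak within 250 kb of each gene's RefSeq start, plotted against distance in kb with upstream to the left. Filled symbols are assigned to the gene, open ones to a neighbour, and stars mark FDR < 0.05; the Pdgfb panel holds 16 peaks, 15 of them above 0, and the Tm4sf1 panel 2.

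Esm1 had folds in both directions. The peak upstream of the gene, chr13:113197249-113197583, lay 12243 bases from the TSS, within the RefSeq gene Gm41069. It had a level of 4.66 in KO and 3.30 in CTR, a log2 fold of 1.36 (FDR 0.409 per the authors' deposited table). The other 3 peaks lay beyond the 3' end of the gene, which spans 113209659 to 113218104 on the plus strand. At 32670 bases from the TSS, chr13:113242206-113242451 had 4.36 in KO and 3.03 in CTR, a log2 fold of 1.33 (FDR 0.497 per the authors' deposited table). At 61169 bases, chr13:113270645-113271011 had 4.33 in KO and 2.70 in CTR, a log2 fold of 1.62 (FDR 0.294 per the authors' deposited table). The 3 positive Esm1 peaks therefore had similar folds, near the median of positive folds in the table.

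The 1 negative fold among the 12 peaks was at the fourth Esm1 peak, chr13:113265356-113265499, 55769 bases from the TSS. Its level was 1.34 in KO and 3.30 in CTR, a log2 fold of -1.96 (FDR 0.209 per the authors' deposited table). This was the narrowest peak of the set, at 144 bases, and its KO level was the lowest of the 24 group levels. The lowest KO level in the whole table is 0.13. Only 5145 bases separate it from the positive peak at 61169 bases. Both distal peaks are nearer to the RefSeq start of Cspg4b than to that of Esm1. Listed peaks farther out, 208691 and 229605 bases downstream of the Esm1 start and assigned to 4921509O07Rik, had log2 folds of 0.69 and 2.89, neither called (FDR 0.519 and 0.0958 per the authors' deposited table).

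Igfbp3 had 2 listed peaks with positive folds, neither called. The first, chr11:7210455-7210613, lay in intron 1 of the gene, 3389 bases downstream of its TSS, and was the 1 intronic peak of the 12. Its level was 4.08 in KO and 2.33 in CTR, a log2 fold of 1.75 (FDR 0.146 per the authors' deposited table). The second, chr11:7234245-7234748, lay 20574 bases upstream, within the RefSeq gene Gm36565. There the level was 5.67 in KO and 5.01 in CTR, a log2 fold of 0.66 (FDR 0.515 per the authors' deposited table). Igfbp3 is on the minus strand of chromosome 11, from 7206086 to 7215498. The 1 other peak listed within 250 kb was in intron 2 of the adjoining Igfbp1, another carrier of insulin-like growth factors. It had 3.91 in KO and 2.76 in CTR, a log2 fold of 1.15 (FDR 0.431 per the authors' deposited table). All 3 listed peaks of this pair of genes thus had positive folds, and none was called.

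Because peaks differ in width, levels were compared between peaks per 100 bases. On that log2 scale the widest Pdgfb peak stood at 4.84 in KO and 3.91 in CTR, above 99.8% of listed peaks by its mean level. The Tm4sf1 peak stood at 2.83 in KO and 0.72 in CTR, above 33.2% of listed peaks. The 3 peaks nearest the RefSeq start of Pdgfb were above 97.1% or more of all listed peaks, whereas the Esm1 peaks ranged from 14.7% to 62.4%. The called peaks of Pdgfb and Tm4sf1 thus lay in different parts of the level range, and no error per peak is at hand by which to tell neighbours in this order apart.

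**Figure D3:**
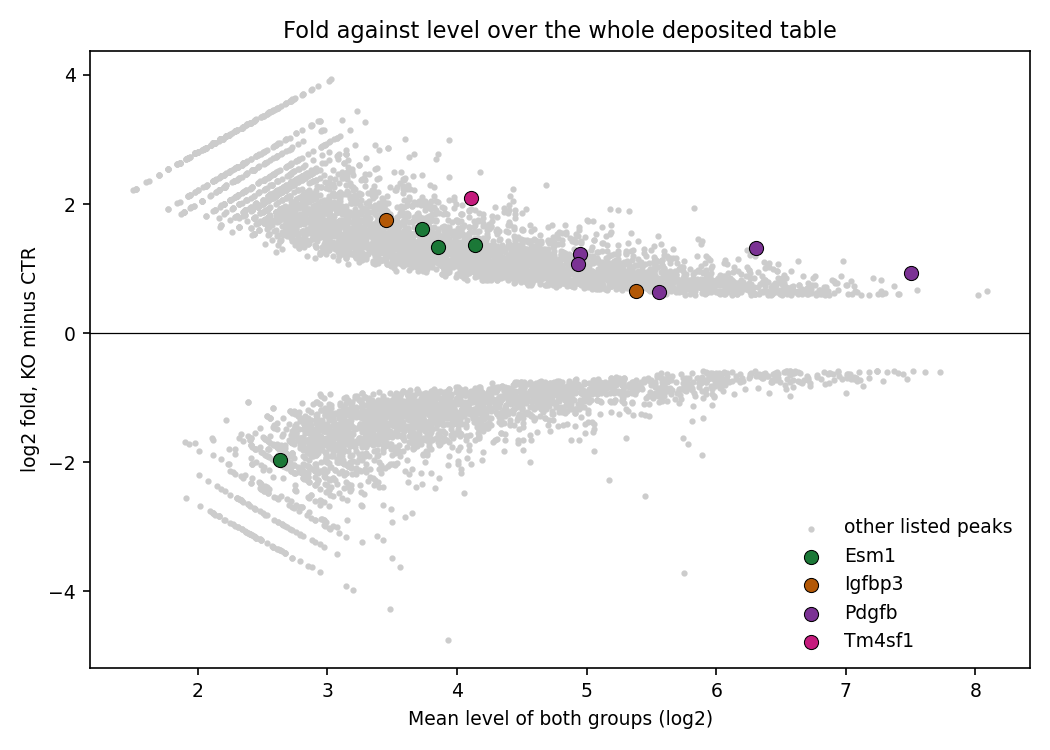
Log2 fold (KO minus CTR) against the mean log2 level of both groups for all 6891 listed peaks (grey) and the 12 peaks of the 4 genes (coloured). The smallest listed fold grows as the level falls; the called Pdgfb peaks, at mean levels of 7.50 and 6.31, and the Tm4sf1 peak, at 4.11, lie along the upper edge of the cloud, and the Esm1 peak at -1.96 is the single member below 0.

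A wider list of 41 tip cell genes was counted for context. It held 37 listed peaks at 18 genes, and 23 genes had none, among them Apln, Dll4, Kcne3 and Cd34. Positive folds made up 28 of the 37 and negative folds 9, with a median log2 fold of 1.02 per the authors' deposited table. Without the 4 genes, 25 peaks remained, 17 positive and 8 negative (68.0% positive, against 62.1% of all listed peaks), with a median of 0.91. Of these, 1 was called, higher in KO. Col4a2, a collagen gene of vascular basement membrane, holds it, with a level of 3.85 in KO and 0.88 in CTR (log2 fold 2.97, FDR 0.0368 per the authors' deposited table).

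Among the genes outside the 4, a peak 103655 bases from Adamts1, a secreted protease gene, had a level of 3.30 in KO and was listed at 0 in CTR (FDR 0.0891 per the authors' deposited table). Ccn2, a matricellular protein gene, had 5 peaks with log2 folds from 0.91 to 1.73, all over 100 kb from its TSS (smallest FDR 0.157 per the authors' deposited table). Angpt2, named after its values were seen, encodes a TIE2 ligand released by tip cells and had 2 positive folds, 0.86 and 0.78 (FDR 0.382 and 0.495 per the authors' deposited table). Of the genes outside the 4, 7 had positive folds alone, 1 had both signs and 6 had negative folds alone. Those 6 are named here after their values were seen. They were the VEGF receptor genes Kdr and Flt4, the chemokine receptor gene Cxcr4, the adhesion gene Mcam, the filopodial actin-bundling gene Fscn1, and Trp53i11. None of their 7 peaks was called, with log2 folds from -0.75 to -1.47 per the authors' deposited table. Tip cell genes other than the 4 therefore had folds of both signs.

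**Figure D4:**
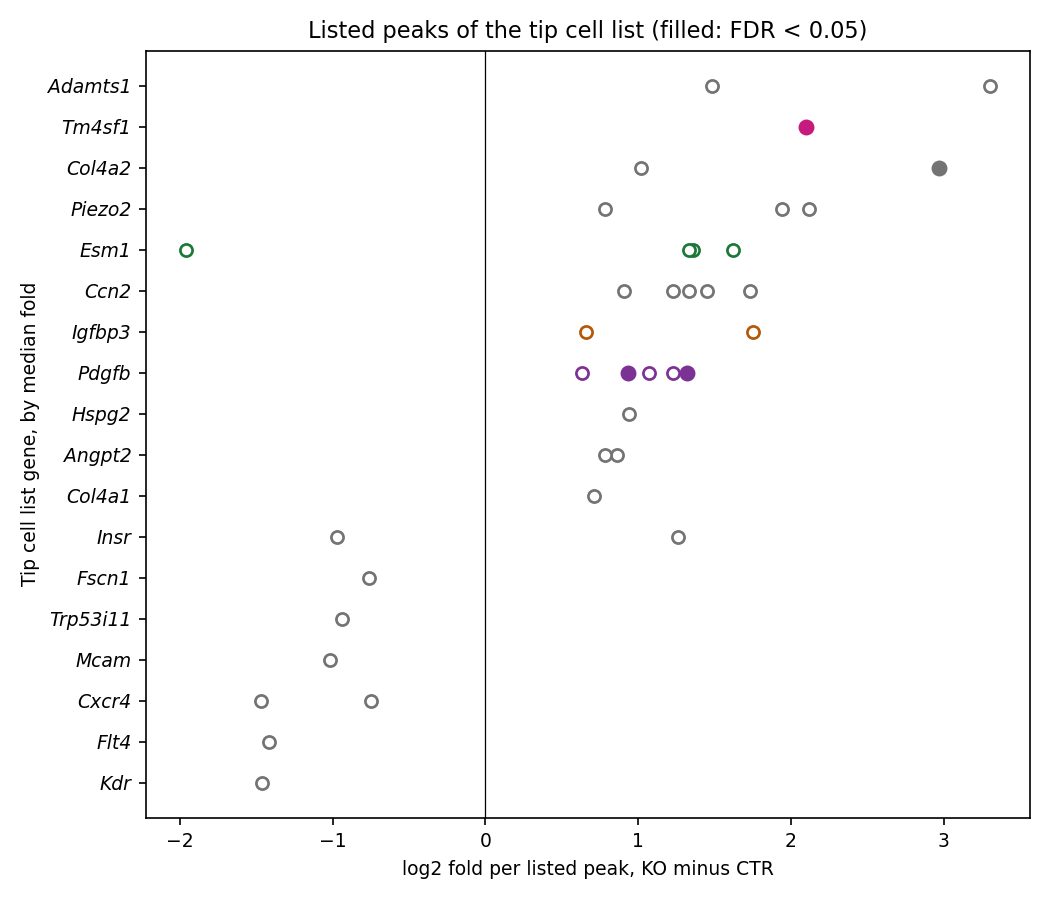
Log2 fold (KO minus CTR) of each listed peak of the 18 tip cell list genes with a peak, ordered by median fold, with filled points at FDR < 0.05. Of the 37 peaks 28 lie right of 0, and the filled points are 2 of Pdgfb, 1 of Tm4sf1 and 1 of Col4a2.

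Genes that act with the 4 were counted from lists of their pathways. In the PDGF list of 9 genes, 10 peaks were listed, 8 with positive and 2 with negative fold, and the 2 called were the Pdgfb peaks above. The 8 include the 5 Pdgfb peaks themselves, and 62.1% of all listed peaks were positive. By gene, 3 had positive folds alone (Pdgfb, Pdgfc and Pdgfd) and 2 negative folds alone (Pdgfa and Pdgfrb). The peak of smallest FDR outside Pdgfb lay 356732 bases from Pdgfc, another ligand gene, at 4.39 in KO and 2.17 in CTR (log2 fold 2.21, FDR 0.0531 per the authors' deposited table). Pdgfrb, the pericyte receptor for PDGF-B, had 3.16 in KO and 4.57 in CTR at an intron peak (log2 fold -1.41, FDR 0.338 per the authors' deposited table). Pdgfd, also a ligand gene, had a peak at 2.64 in KO that was listed at 0 in CTR (FDR 0.349 per the authors' deposited table), and a Pdgfa peak had a log2 fold of -1.42 (FDR 0.418 per the authors' deposited table).

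The insulin-like growth factor list of 17 genes held 10 listed peaks, 7 positive and 3 negative, and 0 called. The 7 include the 2 Igfbp3 peaks themselves, and 62.1% of all listed peaks were positive. Its smallest FDR was at Irs1, which encodes an adaptor of the insulin and IGF1 receptors. An intron peak there had 0.52 in KO and 3.44 in CTR (log2 fold -2.92, FDR 0.0571 per the authors' deposited table). The 4 binding protein genes with listed peaks had positive folds, but they include Igfbp3 and its neighbour Igfbp1, described above. The others were Igfbp6 at its promoter (0.78, FDR 0.26) and Igfbp7 in an intron (0.61, FDR 0.394 per the authors' deposited table). The 3 negative folds of the list lay at genes other than these, namely Irs1, Igf1r and the insulin receptor gene Insr. Insr had log2 folds of 1.26 and -0.97 (FDR 0.279 and 0.31 per the authors' deposited table). Igfbp7 and the receptor gene Igf1r were named after their values were seen, and an intron peak of Igf1r had a log2 fold of -1.10 (FDR 0.371 per the authors' deposited table). The TM4SF list of 7 genes also holds Wwtr1 and Yap1, genes of Hippo pathway coactivators outside that family. In it, Tm4sf20 had the other 2 listed peaks, with log2 folds of 1.00 and 1.59 (FDR 0.21 and 0.528 per the authors' deposited table).

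The table holds differing peaks only, so it gives no check of the cells' endothelial identity. Of 10 endothelial marker genes, 4 had listed peaks, 5 with positive and 2 with negative fold, and 0 called. Markers of 8 other cell types, 43 genes in all, had 19 listed peaks, of which 1 was called, a lower one assigned to Foxn4. Over all listed peaks, 3.02% were called and 62.1% were positive, so counts this small say little. Pericyte and smooth muscle markers had 1 positive and 1 negative fold, bipolar cell markers 3 and 3, and Muller glia markers 3 and 1. Ganglion cell markers had 2 positive folds and photoreceptor markers 1. Microglial markers had 2 negative folds, amacrine and horizontal cell markers 2 negative, and astrocyte markers no listed peak. Their part in the values at the 4 genes was not tested.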

How the data were processed

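ATAC-seq libraries were made from CD31-selected retinal endothelium, per the labels' protocols. The submitters' processing notes name build mm10 and, without roles, ChIPseeker, edgeR, DiffBind, MACS2, deepTools, Picard 1.119, SAMtools, Bowtie2 and Trimmomatic 0.36. How peaks were merged, shifted, scaled and annotated, and the depth, are not stated there. The authors deposited 1 table in 2 copies, whose numeric columns were equal. Before deposit the authors computed a log2 level per group, a log2 fold change, an unadjusted p-value and an FDR per peak. The deposited log2 fold equalled KO minus CTR in all 6891 rows, within 0.011. The deposited mean equalled the log2 of the average of both linear levels in all 6891, within 0.011.

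Peaks were selected by the authors' gene assignment and described with Python 3.11.15 and pandas 2.3.3. No test was run, and no values per library were used. Levels per 100 bases add log2(100/width). Gene spans and starts came from RefSeq (GRCm38.p6); for Pdgfb the 5' gene boundary was used, with its strand read from the authors' distances. Named genes were the 4 genes, genes assigned to peaks within 250 kb of their starts, list genes called at FDR < 0.05, and up to 4 of smallest FDR per list, unless said otherwise. Members and lists were chosen with earlier results of these data known.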

Additional observations from a re-analysis of the deposited data

How the results depend on the processing

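The count of peaks called higher at the 4 genes (3) was 0 at FDR < 0.01, 11 over every listed peak, and 1 without Pdgfb. The count called lower (0) was 1 over every listed peak. With peaks given to the nearest RefSeq start, 7 positive and 0 negative peaks were listed, since 2 Esm1 peaks went to Cspg4b, 4 others went to predicted genes and the Mir12195 peak came to Tm4sf1. With every peak within 100 kb of a start taken, there were 22 positive and 2 negative. Without Pdgfb, 6 positive peaks remained. Among peaks whose mean level reached the median (3.74), 0 negative peaks remained, and the nearest protein-coding start, added after seeing the data, also left 0. Tip cell list peaks with positive fold (28) numbered 17 without the 4 genes and 15 within 50 kb of a TSS. Gaps of 25 and 100 kb, added after seeing the data, gave runs of 9 and 13 peaks at Pdgfb. Of 37 alternatives in all, 24 stayed within 1.5 times the reported count and 13 moved further. Some of the 24 could not have moved, such as stricter cuts on the 0 peaks called lower and the equal second copy. The only alternative for the fold, KO minus CTR, equals the deposited fold, so no fold could reverse. The 24 are therefore no measure of robustness.

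No paired analysis was possible because the table holds 1 level per group and no value per library. No library was left out in turn, for the same reason, and the depth behind each level is unknown.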

Other observations

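The VEGF and stalk cell list, which holds the receptors and Notch genes that act on tip cell choice, had 15 listed peaks at 9 of 16 genes. Of these 8 had positive and 7 negative folds and 0 were called, with a median log2 fold of 0.76 per the authors' deposited table. Of all listed peaks 62.1% were positive and 3.02% called, with a median of 0.93. At that share, 0 called among 15 peaks says little. The 4 genes of smallest FDR did not share a sign at every peak. Jag1, a Notch ligand gene, had 4.56 in KO and 2.70 in CTR at its peak of smallest FDR (log2 fold 1.86 at FDR 0.0702 per the authors' deposited table). That peak lay 293301 bases from the Jag1 TSS. Its other positive fold, 0.76, lay 222884 bases away, and its negative one, -1.29, lay in an exon of the gene. Rbpj, which encodes the DNA-binding partner of Notch, had 5.10 in KO and 3.69 in CTR at one peak and 3.87 in KO and 1.67 in CTR at the other (log2 folds 1.42 and 2.20 at FDR 0.0916 and 0.139 per the authors' deposited table). These Rbpj peaks lay 12081 and 85396 bases from the TSS. Flt1, which encodes a decoy receptor for VEGF, had 4.48 in KO and 5.55 in CTR at its peak of smallest FDR (log2 fold -1.07 at FDR 0.248 per the authors' deposited table), beside 2 positive folds of 0.81 and 0.77. The Notch target gene Hes1 had 3.67 in KO and 1.78 in CTR (log2 fold 1.89 at FDR 0.26 per the authors' deposited table).

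Runs of positive folds were also listed at other genes, picked here after their values were seen. The 6 positive peaks assigned to the semaphorin receptor gene Plxna1 spanned 49.3 kb with a median log2 fold of 1.305, and the 5 assigned to Ccn2 spanned 34.6 kb with a median of 1.33, per the authors' deposited table.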
